A study of Mus musculus with 38 samples.

Results

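The promoters of long non-coding RNA genes were taken from a table of promoter clusters of the mouse soleus muscle. A cluster was a member when, within 500 bp of its highest peak on the same strand, the nearest annotated transcript 5′ end of GENCODE vM21 on mm10 belonged to a gene of type lincRNA, antisense, processed_transcript, sense_intronic, sense_overlapping, bidirectional_promoter_lncRNA, TEC or lncRNA. This gave 168 clusters of 165 genes among the 10819 clusters of the table, of which 9615 lay near an annotated 5′ end and 8750 of those near that of a protein-coding gene. The members comprised 76 clusters of lincRNA, 36 of processed_transcript, 35 of antisense, 14 of bidirectional_promoter_lncRNA, 6 of TEC and 1 of sense_intronic genes. Only Lncpint, 5031425E22Rik and 1810026B05Rik had a pair of member clusters, named p1 and p2.

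Transcription starts were measured by nAnT-iCAGE, a method that traps RNA by its cap and sequences the 5′ end without amplification, in 38 soleus muscles of C57BL/6J mice, with 1 library per mouse. Experiment 1 held 4 Pre mice sampled on day 1 with free food, 8 Mid mice on day 2 after food had been withdrawn, 4 Post mice on day 3 after food had been given back, 4 HiT mice on day 2 kept in a warm chamber, 4 Fed mice on day 2 that kept their food, and 4 Dep mice on day 2 that were fasted and touched gently whenever they began to enter torpor. Experiment 2 held 2 Pre, 5 Mid and 3 Post mice, and none of its mice were shared with experiment 1. The sources differ on the food of HiT and Fed mice, and the study's own account was followed here, in which HiT mice fasted in the warm and Fed mice ate at the low ambient temperature. Apart from the HiT mice all animals were kept at a low ambient temperature, no transgene or altered allele was named for any group, and by the study's methods the mice were young adult males.

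Long non-coding RNAs are capped transcripts without a known protein product. Some act in the nucleus, as Neat1 does in building paraspeckles and Airn in silencing imprinted neighbours, whereas others are mainly known as the precursors from whose introns small nucleolar RNAs (snoRNAs), the guides of ribosomal RNA modification, or microRNAs are cut. Many start next to the promoter of a protein-coding gene on the opposite strand. CAGE counts only their 5′ ends, so that spliced, retained and degraded products of a promoter are not told apart.

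The first bases of the RNA are shown here because snoRNA host genes led the promoters that were higher at Mid, and because their starts are of a known kind. Host genes of snoRNAs are known, as are ribosomal protein genes, for starts of the terminal oligopyrimidine (TOP) type, a C followed by a run of pyrimidines. A pyrimidine followed by a purine, the usual pair at a start, stood 2 bases downstream of the listed peak in 78.3% of 4437 RefSeq promoter windows and at 3.81 to 22.6% at the other offsets from 0 to 4 bases, so each sequence was read from that position. GENCODE transcript sequence covered this position for 66 members. A C followed by at least 4 pyrimidines opened the RNA of 4 of 9 genes with a snoRNA (44.4%) and of 2 of the 57 others (3.51%, Atcayos and Gm10076). The first 30 bases of 9 members are printed 5′ to 3′, with the unbroken pyrimidine run at the start in capitals, first for 5 snoRNA host genes of the TOP or pyrimidine-rich kind, then for Snhg20, a snoRNA host without such a run, and then for Lncpint p1, Neat1 and Gm12002, which host none.
1110038B12Rik: CTCTTTgtgcacccgcccacacggtttgcc
Snhg12: CCTTTCTCgcttcatccgcggtccctgtct
Snhg5: CTTTTacgacggagcctaagatattctttg
Snhg6: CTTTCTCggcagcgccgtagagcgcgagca
2410006H16Rik: CTCTgcggccatcatgggatcgtgctcttc
Snhg20: ggttccgccggggaggagaactcgcgtgct
Lncpint p1: agcattaggggagcccacggctacaaaaca
Neat1: aggagttagtgacaaggagggctcgctctt
Gm12002: agagtgacaggagagctcctagggagctga

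Among the 4437 clusters with a RefSeq window of 300 bases, 1.92% had such a TOP start, compared with 7.04% (5) of the 71 members with a window and 40% (4) of the 10 with a snoRNA. The pyrimidine-purine pair, present at 78.3% of all starts and at 76.1% of the member starts, was found at 20% (2) of the snoRNA hosts. TATAAA between 40 and 20 bases upstream of the start was found in 8.45% of the members against 3.45% of all windows, and TGACGTCA, the binding motif of cyclic AMP response factors, in 9.86% against 3.94%. CCAAT was at 36.6% against 38.9% and the E-box CACGTG at 8.45% against 10.4%, each searched on both strands. A match describes these letters in the window only. The windows of a pair of promoters that were higher at Mid and a pair that were lower are printed below, from RefSeq on GRCm38.p6, on the strand of the gene and with the first 5 bases of the RNA in capitals. They are Snhg12 (chr4:132308428-132308727, plus strand), 2410006H16Rik (chr11:62602627-62602926, plus strand), 3300002P13Rik (chr7:3423396-3423695, minus strand) and Gm4544 (chr15:102657222-102657521, plus strand).
Snhg12: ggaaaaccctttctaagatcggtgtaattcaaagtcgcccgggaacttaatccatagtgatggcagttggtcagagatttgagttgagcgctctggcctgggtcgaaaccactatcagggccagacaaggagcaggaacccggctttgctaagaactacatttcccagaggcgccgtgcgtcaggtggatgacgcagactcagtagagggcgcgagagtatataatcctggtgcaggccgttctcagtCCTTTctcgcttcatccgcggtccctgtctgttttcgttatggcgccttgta
2410006H16Rik: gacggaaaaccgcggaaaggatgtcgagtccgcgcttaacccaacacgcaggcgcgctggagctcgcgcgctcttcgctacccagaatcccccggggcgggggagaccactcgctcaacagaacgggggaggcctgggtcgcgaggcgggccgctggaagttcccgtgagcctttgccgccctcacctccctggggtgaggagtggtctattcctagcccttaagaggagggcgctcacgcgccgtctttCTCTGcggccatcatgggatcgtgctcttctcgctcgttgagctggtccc
3300002P13Rik: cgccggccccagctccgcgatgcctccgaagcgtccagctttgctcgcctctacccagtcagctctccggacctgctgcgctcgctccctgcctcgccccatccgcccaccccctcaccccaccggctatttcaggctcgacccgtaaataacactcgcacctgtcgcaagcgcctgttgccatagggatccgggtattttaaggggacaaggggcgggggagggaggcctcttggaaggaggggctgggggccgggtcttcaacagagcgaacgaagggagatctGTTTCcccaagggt
Gm4544: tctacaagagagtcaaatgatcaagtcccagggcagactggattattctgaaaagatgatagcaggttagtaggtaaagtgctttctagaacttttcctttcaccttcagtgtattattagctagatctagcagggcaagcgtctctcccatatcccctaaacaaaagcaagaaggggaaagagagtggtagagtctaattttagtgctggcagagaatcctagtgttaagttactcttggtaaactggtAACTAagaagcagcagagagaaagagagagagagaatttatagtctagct

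The libraries held between 18257657 and 39176649 tags in clusters in experiment 1 and between 9359994 and 20914855 in experiment 2. Counting error weighs more in the shallower libraries of experiment 2 and in weak members, and its share of the spread between mice was not tested. Markers of slow and oxidative soleus muscle were found for 11 of 11 genes and were high in every group, with a summed level of 10539 to 19562 TPM (deposited tags per 1000000 tags of a library) in HiT and of 17213 to 28282 in the rest of experiment 1. Several libraries stood apart from their groups. Mid 6 was the lowest Mid library for 12 of the 15 members with a snoRNA. This was not particular to them, since Mid 6 was also the lowest for Malat1, Tmem134, Dleu2 and other members without a snoRNA. It also had the smallest share of tags in members among the Mid libraries (0.697%). HiT 4 had the lowest TMM factor (0.679), and Fed 1 was the highest Fed library for several members. The Dep 1 library had 117 TPM of neutrophil markers against at most 1.74 in the rest of experiment 1. In whole muscle, fewer cells of a type and less RNA per cell cannot be told apart. Replicates are separate mice, so that p-values measure the spread between mice.

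Long non-coding RNA promoters had a lower median level than those of protein-coding genes. Their mean level over all libraries had a median of 11.9 TPM (interquartile range 7.76 to 23.5) against 18.2 TPM for the 8750 protein-coding promoters and 16.7 TPM for all clusters. The range ran from 1.68 TPM for Myhas, a transcript antisense to the fast myosin heavy chain genes, to 2481 TPM for Malat1, the abundant transcript of nuclear speckles, and 11 members were at 100 TPM or above. Cluster width (median 279.5 against 288 bp) and the spread between mice of a group (median coefficient of variation 17.9 against 16.6%) were close to those of protein-coding promoters. Neat1 followed Malat1 with 441 to 2508 TPM over the libraries of experiment 1. H19, an imprinted transcript that is known to persist in adult muscle, had 269 to 686 TPM there. Together the 168 members took 0.648 to 1.29% of the tags that a library of experiment 1 had in clusters. Fed libraries were the highest, with 0.994 to 1.29% (1.13 ± 0.123, SD, n = 4), whereas the medians of the other groups lay between 0.848 and 0.929%. Malat1 and Neat1 alone made up 0.396 to 0.766% of the tags in Fed and 0.192 to 0.445% elsewhere in experiment 1, and without both the Fed share (0.476 to 0.598%) overlapped those of the other groups.

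The first question was which of these promoters moved from the fed baseline (Pre) to the fasted day at low temperature (Mid), and back after refeeding (Post). Of the 168 members, 17 were higher and 39 lower in Mid than in Pre at an FDR under 0.05 in edgeR's quasi-likelihood test (33.3%), where 30.2% of all clusters tested were called, 15.4% higher and 14.8% lower. The share of members called was close to that of all clusters, with 23.2% called lower and 10.1% called higher. From Mid to Post 36 were higher and 25 lower (36.3%, against 35.0% of all clusters, 17.5% in each direction). The median log2 fold change of the members was −0.05 from Pre to Mid and 0.06 from Mid to Post, beside 0.01 and −0.01 for all clusters. With library size alone in place of TMM the Pre to Mid counts became 6 higher and 33 lower, so that 15.4% of the calls were higher rather than 30.4%. Of the markers of other cell types, 3 of 5 for endothelium were lower and 1 was higher in Mid than in Pre, with a summed level of 165 to 214 TPM in Pre and of 143 to 186 TPM in Mid, and 1 each for adipocytes (of 7), tendon and fibroblasts (of 8) and Schwann cells (of 3) was lower. Their part in the changes from Pre to Mid was not tested.

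**Figure D1:**
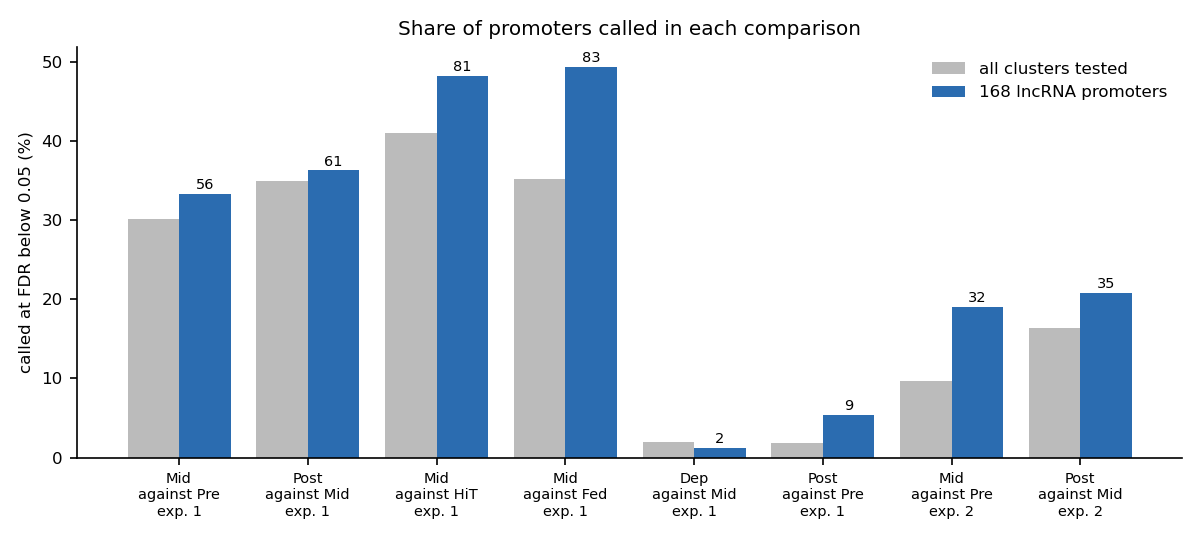
Share of promoters called at an FDR under 0.05 (y axis, percent) in each comparison (x axis), for all clusters tested (grey) and for the 168 long non-coding RNA promoters (blue), with the number of members called above the bar. The members' bar stands above the grey bar by the widest margin in Mid against Fed (49.4 against 35.2%), and both are lowest in Dep against Mid and Post against Pre.

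Host genes of snoRNAs were prominent among the promoters higher at Mid. In the list of 10 such genes, 6 were higher and 0 lower in Mid than in Pre, with a median log2 fold change of 0.39 against 0.01 over all clusters. From Mid to Post 5 were lower and 3 higher, with a median of −0.26. Against Fed 8 were higher and 0 lower at Mid (median 0.53), whereas against HiT 2 were higher and 2 lower (median −0.01). Of all clusters, 15.4% were higher and 14.8% lower from Pre to Mid, and 17.5% were called in each direction from Mid to Post. For Mid against Fed 16.6% of all clusters were higher and 18.6% lower, and for Mid against HiT 19.2 and 21.8%. The 15 members with a snoRNA gene inside the annotated gene gave 8 higher and 1 lower from Pre to Mid, 7 lower and 4 higher from Mid to Post, 10 higher and 1 lower against Fed, and 3 higher and 5 lower against HiT. Leaving out 1 library moved the smaller of these counts most. For the 10 hosts, Post against Mid gave 1 to 3 higher and 4 to 6 lower, with 1 higher without Post 3, and Mid against HiT gave 1 to 4 higher and 1 to 2 lower, with 4 higher without Mid 6, 1 higher without Mid 1, Mid 5, Mid 7, Mid 8, HiT 2, HiT 3 or HiT 4, 1 lower without HiT 1 or HiT 4, and a median from −0.05 to 0.11. For the 15 annotated members the ranges were 1 to 5 higher and 6 to 8 lower in Post against Mid, with 1 higher without Post 3 and 2 without Post 2 or Mid 4, and 2 to 5 higher and 3 to 5 lower in Mid against HiT, with 5 higher without Mid 6 and 3 lower without HiT 1 or HiT 4. In Dep against Mid edgeR and DESeq2 called none of the 15 (1 at an unadjusted p under 0.05), and in Post against Pre edgeR called none and DESeq2 called 1 (5 at an unadjusted p under 0.05).

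Zfas1, the host of Snord12, started at chr2:167063104-167063329 on the plus strand. Its 4 Pre libraries had 34.6, 42.1, 34.6 and 32.5 TPM, the 8 Mid libraries had a lowest value of 33.4, a median of 82.7 and a highest of 102 TPM, and the 4 Post libraries had 23.4, 29.1, 31 and 34.6 TPM. All Mid libraries but Mid 6 lay above every Pre and Post library. The HiT libraries (79.1, 55.1, 47.1 and 37.0 TPM) lay within the range of Mid, the Fed libraries (32.9, 28.8, 36.5 and 27.2 TPM) were at the level of Pre, and the Dep libraries (66.5, 60.3, 109 and 55.3 TPM) were at the level of Mid. The log2 fold change was 1.19 ± 0.17 (SE, FDR = 9.37e-06) from Pre to Mid, −1.42 ± 0.17 (FDR = 6.10e-07) from Mid to Post, 0.43 ± 0.16 (FDR = 0.0368) for Mid against HiT and 1.41 ± 0.17 (FDR = 9.72e-07) for Mid against Fed. Without Mid 6 the change from Pre to Mid was 1.30. Here and below, each SE of a log2 fold change was calculated back from the F statistic of the test.

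2410006H16Rik, which holds Snord49a, Snord49b and Snord65, started at chr11:62602783-62603027 on the plus strand, with the pyrimidines shown above. Pre libraries had 27.3, 25.3, 22.9 and 27.2 TPM, Mid libraries had 24.2 at the lowest, 55.4 at the median and 76.5 TPM at the highest, and Post libraries had 24.1, 28.3, 28.3 and 34.1 TPM. Mid 6 was again the one Mid library within the range of Pre. HiT libraries had 80.4, 52.4, 44.8 and 36.1 TPM and overlapped Mid, and the Fed libraries had 18.9, 22.7, 25 and 21.2 TPM, below every Mid library but Mid 6. Accordingly the log2 fold change was 1.20 ± 0.16 (FDR = 3.35e-06) from Pre to Mid, −0.99 ± 0.16 (FDR = 2.40e-05) from Mid to Post and 1.46 ± 0.16 (FDR = 3.24e-07) against Fed, but −0.00 ± 0.15 (FDR = 0.995) against HiT. Without Mid 6 the first of these was 1.31. Epb41l4aos, another host, had 29.2, 34.8, 27.3 and 31.6 TPM in Pre and a median of 61.2 TPM in Mid (lowest 28.2, highest 78.1), with a change of 1.05 ± 0.14 (FDR = 4.98e-06). Snhg12 had 9.88, 11.9, 9.64 and 12.3 TPM in Pre and a Mid median of 22.7 TPM (lowest 9.61, highest 27.3), with 1.05 ± 0.16 (FDR = 1.67e-05). For both, Mid 6 was the one Mid library not above Pre, and without it the changes were 1.15 and 1.16.

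Other host genes moved less or the other way. Gas5, a growth arrest transcript with several snoRNAs, changed by 0.36 ± 0.11 (FDR = 0.0154) from Pre to Mid and Snhg6 by 0.42 ± 0.09 (FDR = 0.000705). Snhg8 did not pass the test from Pre to Mid (0.05 ± 0.09, FDR = 0.707), and was higher in Post than in Mid (0.25 ± 0.09, FDR = 0.0291) and lower in Mid than in HiT (−0.28 ± 0.09, FDR = 0.0108). TOP starts were thus found both at hosts with a large change (Snhg12) and at hosts with a small one (Snhg6).

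**Figure D2:**
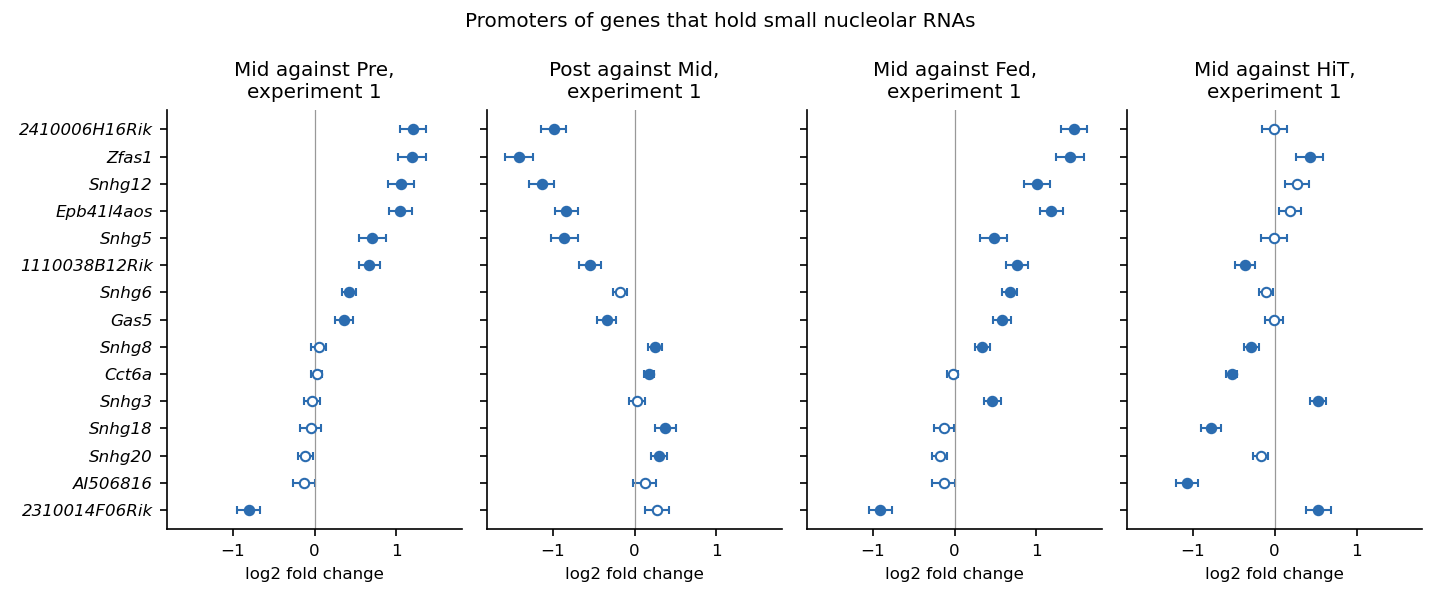
Log2 fold change with its SE (x axis) of the 15 members whose gene contains a snoRNA (y axis), in Mid against Pre, Post against Mid, Mid against Fed and Mid against HiT of experiment 1, with filled points for an FDR under 0.05. The SE was calculated back from the F statistic of the test. Zfas1, 2410006H16Rik, Epb41l4aos and Snhg12 lie at 1.05 to 1.20 in Mid against Pre, and in Mid against HiT 3 filled points lie to the right and 5 to the left of 0.

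Gm17251 had the largest rise from Pre to Mid among the members called. Its start on chromosome 17 (chr17:33759925-33760177, plus strand) lies 349 bp from that of Rab11b, which encodes a small GTPase of endosome recycling, on the opposite strand. The values were 5.95, 5.86, 4.37 and 6.39 TPM in Pre, 6.63 (lowest), 16 (median) and 19.6 TPM (highest) in Mid, and 3.95, 4.32, 5.05 and 5.79 TPM in Post, with no overlap of Mid with Pre or Post. HiT had 17.4, 13.7, 10.9 and 9.33 TPM and overlapped Mid, and Fed had 4.53, 7.34, 8.11 and 5.82 TPM, of which only 2 libraries exceeded the lowest Mid library. The log2 fold change was 1.51 ± 0.17 (FDR = 6.19e-07) from Pre to Mid, −1.69 ± 0.17 (FDR = 6.39e-08) from Mid to Post, 1.34 ± 0.17 (FDR = 1.66e-06) against Fed and 0.16 ± 0.16 (FDR = 0.457) against HiT. Mid 6 was the lowest Mid library here too, and the change from Pre to Mid was 1.62 without it. Rab11b itself changed by 0.52 from Pre to Mid.

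Lncpint p1, the promoter of a p53-induced transcript at chr6:31218301-31218773 on the minus strand, had 4.89, 4.72, 5.84 and 5.23 TPM in Pre, 4.40, 10.5 and 20.7 TPM as the lowest, median and highest of Mid, and 3.45, 4.40, 4.44 and 5.79 TPM in Post. One Mid library, Mid 6, was below all Pre libraries and the other 7 were above them. It rose by 1.16 ± 0.30 (FDR = 0.00458) to Mid and fell by 1.31 ± 0.30 (FDR = 0.00151) to Post, and the rise was 1.27 without Mid 6. Fed libraries ranged from 6.10 to 15.6 TPM for this promoter, and Mid did not differ from Fed beyond the spread between mice (0.18 ± 0.28, FDR = 0.655). A730036I17Rik was smaller in size but passed the test in each of the 4 comparisons of Mid, with 0.68 ± 0.18 against Pre (FDR = 0.00468), −0.73 ± 0.18 from Mid to Post (FDR = 0.00232), 0.99 ± 0.18 against HiT (FDR = 0.000110) and 0.46 ± 0.17 against Fed (FDR = 0.0414). These comparisons share the Mid libraries.

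More members fell than rose at Mid, and several of the leading ones were low against Pre, Post, HiT and Fed but not against Dep. 3300002P13Rik, a lincRNA at chr7:3423223-3423581 on the minus strand, had 10.1, 12.9, 12 and 8.91 TPM in Pre, 2.45, 3.62 and 4.41 TPM as the lowest, median and highest of Mid, and 9.13, 14.7, 12.7 and 13.3 TPM in Post. HiT (8.68, 8.10, 6.01 and 5.19 TPM) and Fed (9.67, 7.75, 11.6 and 10.6 TPM) also lay wholly above Mid, while Dep (4.38, 3.01, 3.22 and 2.16 TPM) overlapped it. The log2 fold changes of Mid were −1.52 ± 0.14 against Pre (FDR = 3.53e-08), −1.04 ± 0.14 against HiT (FDR = 1.88e-06) and −1.33 ± 0.14 against Fed (FDR = 1.60e-07), and that from Mid to Post was 1.75 ± 0.14 (FDR = 1.39e-09).

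Gm29773, antisense at chr8:123895811-123896548, followed the same course at a higher level. It had 17.8, 24.9, 25.1 and 28.3 TPM in Pre, 7.52, 9.25 and 12.3 TPM as the lowest, median and highest of Mid, 26.2, 31, 27.8 and 31.6 TPM in Post, 16, 21.3, 14.8 and 13.4 TPM in HiT, 24.6, 20.3, 27.1 and 28.8 TPM in Fed, and 9.20, 9.39, 7.45 and 8.48 TPM in Dep. Mid and Dep formed the low level and no library of another group reached it. The log2 fold change was −1.23 ± 0.15 (FDR = 1.08e-06) from Pre to Mid, 1.58 ± 0.15 (FDR = 1.37e-08) from Mid to Post, −0.88 ± 0.15 (FDR = 4.02e-05) against HiT and −1.27 ± 0.15 (FDR = 5.69e-07) against Fed.

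Gm45338 shares its window with Rtp4, an interferon-inducible chaperone gene, so that tags of both cannot be told apart at this cluster. It changed by −1.05 ± 0.12 from Pre to Mid (FDR = 9.95e-07) and by 1.35 ± 0.12 from Mid to Post (FDR = 1.29e-08), and its levels were 12.1 ± 1.99 TPM in Pre (SD, n = 4), 5.45 ± 0.927 in Mid (n = 8) and 14.1 ± 1.14 in Post (n = 4). Gm4544 was weaker, with 2.96, 4.49, 2.67 and 2.86 TPM in Pre, 0.324, 1.06 and 1.85 TPM as the lowest, median and highest of Mid, and 5.14, 3.77, 5.09 and 5.45 TPM in Post. Mid overlapped neither, with a change of −1.49 ± 0.28 (FDR = 0.000270) to Mid and of 2.16 ± 0.28 (FDR = 1.55e-06) to Post. For Gm12002 the log2 fold change was −1.09 ± 0.23 (FDR = 0.000722) to Mid and 1.14 ± 0.23 (FDR = 0.000365) to Post, and 0.12 ± 0.24 (FDR = 0.723) for Mid against HiT.

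**Figure D3:**
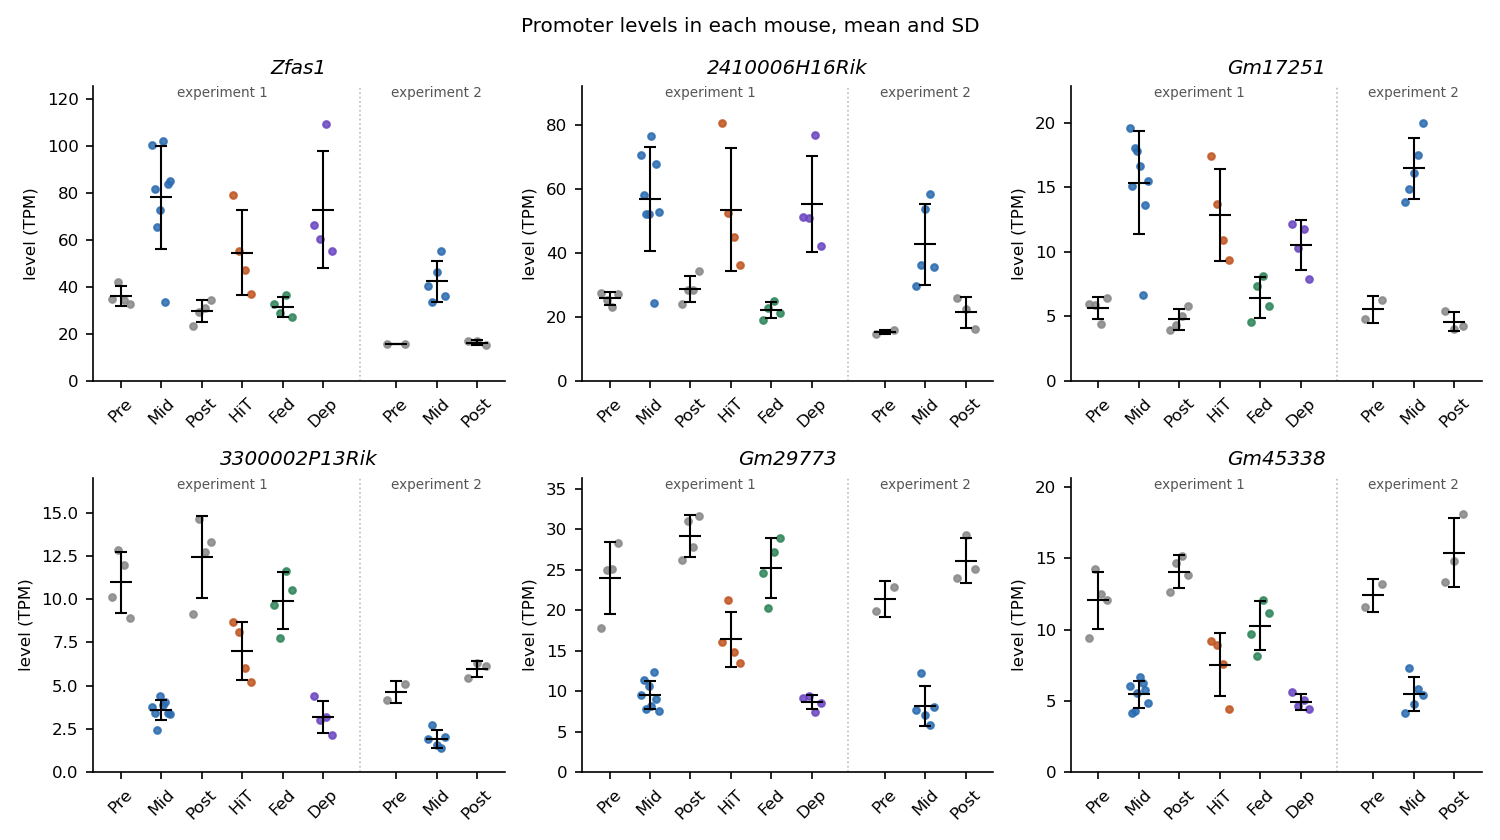
Level (y axis, TPM) of 6 long non-coding RNA promoters in each mouse (points) with mean and SD, by group (x axis) for experiments 1 and 2. Zfas1, 2410006H16Rik and Gm17251 are high in Mid, HiT and Dep, and 3300002P13Rik, Gm29773 and Gm45338 are low in Mid and Dep.

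Gm28653 contains the genes of miR-206 and miR-133b, microRNAs of skeletal muscle that are known to act in regeneration and at the neuromuscular junction. The mature sequences from RefSeq are printed because they are what this transcript is known to carry, with the seed (bases 2 to 8) in capitals. Mature microRNAs have no cap and were not measured here. Dleu2 carries miR-15a and miR-16, whose seeds are the same, Mir22hg carries miR-22 and H19 carries miR-675.
miR-206-3p (Gm28653): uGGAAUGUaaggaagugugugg
miR-133b-3p (Gm28653): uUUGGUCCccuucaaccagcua
miR-15a-5p (Dleu2): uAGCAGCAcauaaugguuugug
miR-16-5p (Dleu2): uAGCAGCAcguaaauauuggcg
miR-22-3p (Mir22hg): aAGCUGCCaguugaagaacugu
miR-675-5p (H19): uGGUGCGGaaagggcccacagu

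The Gm28653 promoter (chr1:20669839-20670256, plus strand) had 6.27, 8.64, 6.14 and 11.2 TPM in Pre, 1.20, 1.68 and 3.39 TPM as the lowest, median and highest of Mid, and 4.35, 4.66, 6.24 and 7.53 TPM in Post. Mid was separate from both. Fed libraries reached the highest values and spread widely (24.8, 15.4, 7.13 and 14.6 TPM), whereas HiT libraries (2.25, 3.07, 2.19 and 1.17 TPM) overlapped Mid. The log2 fold change was −1.91 ± 0.32 (FDR = 6.64e-05) from Pre to Mid, 1.47 ± 0.32 (FDR = 0.000982) from Mid to Post, −2.87 ± 0.32 (FDR = 3.24e-07) against Fed and −0.19 ± 0.35 (FDR = 0.689) against HiT. Of the 8 members with a microRNA gene inside, this was the 1 called from Pre to Mid, and 4 were called lower against Fed. Of all clusters 14.8% were called lower from Pre to Mid and 18.6% against Fed.

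Experiment 2 repeated Pre, Mid and Post in other mice. Here 14 members were higher and 18 lower in Mid than in Pre (19%, against 9.74% of all clusters, 5.3% higher and 4.44% lower). Of these 32 calls, 27 (84.4%) were also called in experiment 1, each in the same direction, and they made up 48.2% of the 56 calls of experiment 1. For all clusters the shares were 84.2 and 27.2%. In experiment 2 the sign was also that of experiment 1 for 54 of the 56 members called in experiment 1 (96.4%). The share was close to that of all clusters called in experiment 1 (94.0%). Of all clusters called in both experiments, 0 went opposite ways. No cluster, member or other, passed the test of a different Pre to Mid change between the experiments (0 of 10818 by edgeR, with 9 members at an unadjusted p under 0.05). The libraries of both Pre mice and of Mid 9 to Mid 12 came from one sequencing lane and that of Mid 13 from another, and with lane as a term 13 members were higher and 14 lower. The calls rest on both Pre libraries, since 4 members were higher and 5 lower without Pre 5, and 4 and 2 without Pre 6.

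Zfas1 had 15.6 and 15.7 TPM in Pre, 40.4, 33.6, 46.4, 55.3 and 36.2 TPM in Mid, and 16.8, 16.9 and 15.1 TPM in Post of experiment 2. Gm17251 had 4.80 and 6.26 TPM in Pre, 13.9, 14.9, 16.1, 17.5 and 20 TPM in Mid, and 5.41, 4.04 and 4.27 TPM in Post. In both, all 5 Mid libraries lay above every Pre and Post library, with a log2 fold change from Pre to Mid of 1.49 ± 0.19 (FDR = 0.00153) for Zfas1 and of 1.64 ± 0.21 (FDR = 0.00174) for Gm17251. Gm29773 had 19.8 and 22.9 TPM in Pre, 7.62, 12.2, 7.06, 5.84 and 8.05 TPM in Mid, and 24.0, 29.3 and 25.1 TPM in Post, again with no overlap (−1.32 ± 0.21, FDR = 0.00442, from Pre to Mid). Gm4544 missed the threshold from Pre to Mid (−1.24 ± 0.35, FDR = 0.0504). In the list of 10 snoRNA hosts, 5 were higher and 0 lower from Pre to Mid (median 0.46), and leaving out each library in turn gave 1 to 5 higher. Of all clusters 5.3% were higher and 4.44% lower.

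**Figure D4:**
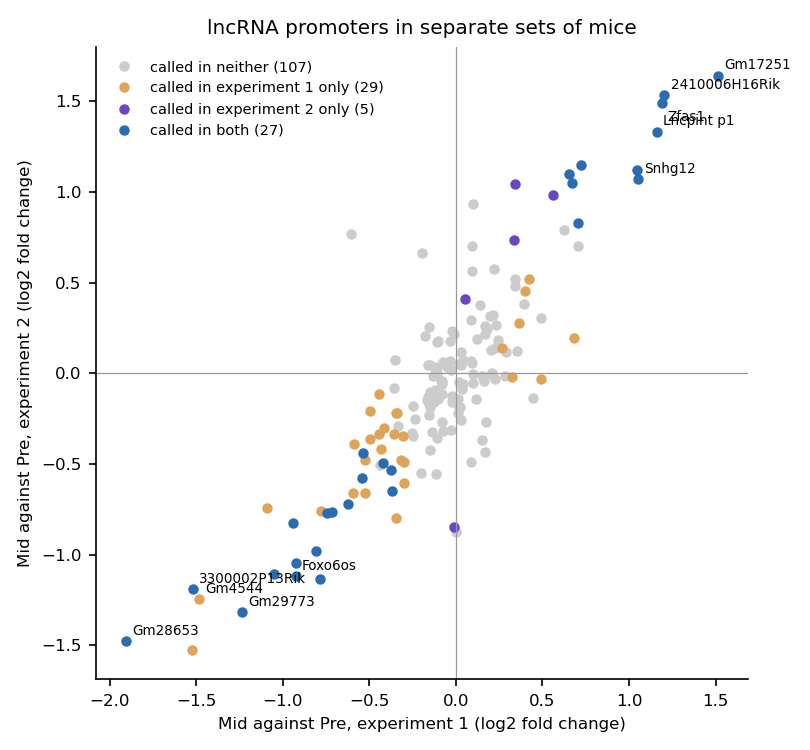
Log2 fold change of Mid against Pre in experiment 1 (x axis) and experiment 2 (y axis) for the 168 members, coloured by whether they were called in neither (107), only in experiment 1 (29), only in experiment 2 (5) or in both (27). The 27 promoters called in both lie in the upper right and lower left of the plot.

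From Mid to Post in experiment 2, 22 members were higher and 13 lower (20.8%, against 16.4% of all clusters, 7.73% higher and 8.65% lower). Of these 35, 30 (85.7%) were called in experiment 1 in the same direction, or 49.2% of its 61 calls. For all clusters the shares were 83.9 and 39.4%, with 0 called in opposite directions. The 3 Post libraries came from the lane of Mid 13, and with lane as a term only 5 members were higher and 5 lower. Zfas1 (−1.32, FDR = 0.0127), Gm17251 (−2.27, FDR = 0.000765), Gm29773 (1.53, FDR = 0.0364) and Gm45338 (1.33, FDR = 0.0370) were still called with lane as a term. The calls of 2410006H16Rik (−0.89, FDR = 0.191), 3300002P13Rik (1.38, FDR = 0.0885), Gm4544 (2.04, FDR = 0.0638), Gm28653 (1.16, FDR = 0.237) and Snhg12 (−1.04, FDR = 0.0735) were not. Without TMM the split of calls from Mid to Post moved from 62.9 to 74.4% higher.

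The comparison with HiT addressed fasting in the warm, without torpor. Of the members, 47 were higher and 34 lower in Mid than in HiT (48.2%, against 41.0% of all clusters, 19.2% higher and 21.8% lower), with a median log2 fold change of 0.12 beside 0.02 for all clusters. HiT libraries also had more macrophage marker tags, with a summed level of 143 to 430 TPM against 33.9 to 99.9 TPM in the rest of experiment 1. All 7 macrophage markers found were lower in Mid than in HiT, and 6 of the 11 slow muscle markers were higher. Their part in the results below was not tested.

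Foxo6os, antisense to the Foxo6 transcription factor gene at chr4:120291129-120291820, was the lowest in HiT. It had 5.13, 4.37, 4.10 and 3.82 TPM in HiT, 12.2, 15.4 and 21.6 TPM as the lowest, median and highest of Mid, 28.4, 38.2, 32.8 and 28.6 TPM in Pre, and 26.7, 26, 46.8 and 37.2 TPM in Fed. HiT lay below every Mid library and Mid below every Pre and Fed library, and Pre and Fed overlapped. Dep libraries (13, 13.1, 10.4 and 7.90 TPM) overlapped Mid. Mid differed by 1.75 ± 0.18 (FDR = 2.90e-08) from HiT, by −0.92 ± 0.16 (FDR = 6.57e-05) from Pre and by −0.97 ± 0.15 (FDR = 2.88e-05) from Fed. After refeeding it had 16.5, 24.4, 20.7 and 20.3 TPM, overlapping Mid, and the change from Mid to Post did not pass the test (0.35 ± 0.16, FDR = 0.0921). AC138790.3 had 5.13, 4.67, 4.67 and 3.30 TPM in HiT and 7.62 to 11.8 TPM in Mid without overlap (1.03 ± 0.11, FDR = 3.36e-08). Mir22hg, which shares its window with Tlcd2, had 23.3, 23.6, 15.4 and 12.6 TPM in HiT and 28.3 to 44.5 TPM in Mid (0.87 ± 0.14, FDR = 2.53e-05).

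In the other direction, Gm42743 had 150, 125, 51.8 and 83.0 TPM in HiT and 12.6 to 27.3 TPM in Mid (−2.35 ± 0.25, FDR = 5.84e-08). This cluster shares its window with the histone gene Hist2h2bb. HiT libraries also had more of Birc5, a gene of cell division, with 4.23 to 12.4 TPM against at most 1.86 TPM in the rest of experiment 1. Birc5 was the only 1 found of 5 such genes, with Ccnb1, Cdk1, Mki67 and Top2a missing, and the part of dividing cells was not tested. Gm36495 had 15.4, 16.6, 12.7 and 11.1 TPM in HiT and 4.83, 5.53 and 6.68 TPM as the lowest, median and highest of Mid, and was called only in this one of the 6 comparisons of experiment 1 (−1.40 ± 0.15, FDR = 4.09e-08). Gm7607 had 9.6, 12.3, 6.90 and 6.36 TPM in HiT and 2.86 to 5.08 TPM in Mid (−1.19 ± 0.15, FDR = 3.64e-07). All 3 were thus above every Mid library in every HiT library. The changes of Myhas (4.59 ± 1.60, FDR = 0.0234) and AY036118 (−1.75 ± 0.57, FDR = 0.0154) were called as well, but both varied widely between mice (0 to 5.68 TPM for Myhas and 74.1 to 584 TPM for AY036118 in Mid). The call of Myhas was lost without HiT 1, HiT 3 or HiT 4, and that of AY036118 without HiT 3 or HiT 4.

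**Figure D5:**
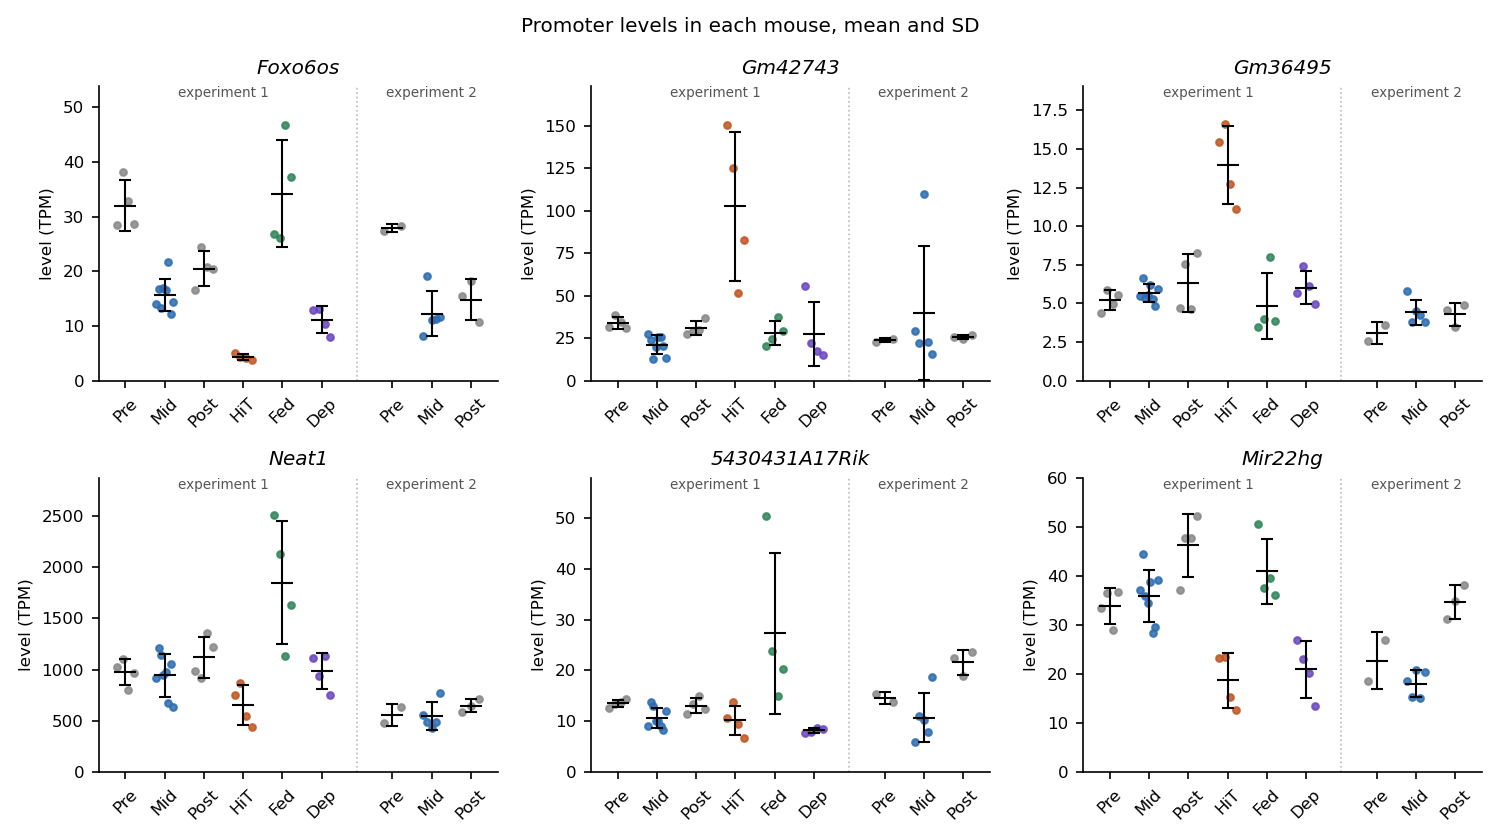
Level (y axis, TPM) of 6 long non-coding RNA promoters in each mouse (points) with mean and SD, by group (x axis) for experiments 1 and 2. Foxo6os is lowest in HiT (3.82 to 5.13 TPM), Gm42743 and Gm36495 are highest in HiT, Neat1 and 5430431A17Rik are highest in Fed, and Mir22hg is low in HiT and Dep.

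Mid against Fed addressed fasting and torpor at the same low temperature. Here 34 members were higher and 49 lower (49.4%, against 35.2% of all clusters, 16.6% higher and 18.6% lower), and the median log2 fold change was −0.11 beside 0.00 for all clusters. Without TMM the median of all clusters shifted by −0.12 and the counts became 10 higher and 44 lower, or 18.5% higher rather than 41.0%, and without Fed 2 there were 22 higher. Malat1 and Neat1, transcripts of nuclear bodies, were lower in Mid. Malat1 had 4688, 3901, 2627 and 3635 TPM in Fed and 1743, 2258 and 3057 TPM as the lowest, median and highest of Mid (−0.58 ± 0.15, FDR = 0.00481). Neat1 had 2508, 2123, 1132 and 1626 TPM in Fed and 631, 961 and 1211 TPM in Mid (−0.91 ± 0.18, FDR = 0.000275). Without Fed 1, the highest Fed library of both, Malat1 was no longer called (−0.42 ± 0.16, FDR = 0.0533) and Neat1 still was (−0.70 ± 0.18, FDR = 0.00483). For both, Fed 3 lay within the Mid range, and neither was called from Pre to Mid (0.23 and 0.03, FDR = 0.292 and 0.930). In the list of 9 well-known transcripts 4 were lower and 1 was higher against Fed, with a median log2 fold change of −0.24. The lower calls rested on Fed 1, since without it 1 was lower and 1 higher and the median was 0.15, whereas leaving out another library gave 3 or 4 lower.

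Among imprinted transcripts Airn was lower in Mid than in Fed (14.5, 10.2, 9.14 and 11.2 TPM in Fed, 4.01 to 5.43 in Mid, −1.12 ± 0.13, FDR = 4.75e-07), with no overlap. Meg3 (−0.82 ± 0.26, FDR = 0.0140) was lower too, and H19 (−0.16 ± 0.16, FDR = 0.467) and Peg13 (−0.11 ± 0.08, FDR = 0.335) did not pass the test. From Pre to Mid only Airn of the 4 imprinted transcripts was called (−0.34 ± 0.13, FDR = 0.0492), where 14.8% of all clusters were lower. No member belonged to the X-inactivation centre.

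The muscle transcripts comprised 5430431A17Rik, also known as Charme, a chromatin-bound RNA of muscle differentiation, and 2310065F04Rik and Myhas, which lie in the cluster of fast myosin heavy chain genes. 5430431A17Rik had 50.5, 23.8, 14.9 and 20.2 TPM in Fed and 8.32, 10.1 and 13.9 TPM as the lowest, median and highest of Mid (−1.27 ± 0.22, FDR = 9.43e-05). 2310065F04Rik had 16.3, 4.74, 7.34 and 7.97 TPM in Fed and 0.466, 0.874 and 4.28 TPM in Mid (−2.56 ± 0.48, FDR = 0.000190). Every Fed library of both lay above all Mid libraries, and Fed 1 was far above the rest. Without it the changes were −0.76 ± 0.18 (FDR = 0.00221) and −2.06 ± 0.50 (FDR = 0.00302). Their log2 fold changes from Pre to Mid were −0.25 ± 0.23 (FDR = 0.443) and −1.52 ± 0.48 (FDR = 0.0186), and the second was lost without Pre 2. Myhas had 15.5, 3.95, 0.459 and 5.65 TPM in Fed and was not called (−2.21 ± 1.00, FDR = 0.0868). In Mid against Fed 4 of 4 red blood cell markers and 4 of 5 endothelial markers were lower in Mid, and their part in these results was not tested.

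Torpor deprivation, in which fasted mice were kept from torpor by touch, gave few calls among the members. Only 2 of 168 were called in Dep against Mid (1.19%, against 2.03% of all clusters, 1.16% higher and 0.872% lower), with 26 at an unadjusted p under 0.05 and 4 called by DESeq2. Mir22hg had 27, 23.1, 20.2 and 13.4 TPM in Dep and 28.3, 36.5 and 44.5 TPM as the lowest, median and highest of Mid, with no overlap (−0.69 ± 0.14, FDR = 0.0156). Its call was lost without Dep 4 (FDR = 0.0523). Gm39469, which RefSeq lists as protein coding, had 16.7, 17.6, 18 and 12.3 TPM in Dep and 11 to 16 TPM in Mid, which overlapped (0.36 ± 0.08, FDR = 0.0181), and its call was lost without Dep 1 or Dep 2. Zfas1, 2410006H16Rik, 3300002P13Rik and Gm29773 had log2 fold changes between −0.09 and 0.05 here, with SEs of 0.15 or 0.16. Others differed more without passing the test, among them Gm17251 (−0.44 ± 0.16, FDR = 0.136), Foxo6os (−0.42 ± 0.17, FDR = 0.163) and Gm28653 (0.51 ± 0.34, FDR = 0.414).

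Post against Pre asked what remained different after refeeding. Of the members 6 were higher and 3 lower (5.36%, against 1.85% of all clusters, 1.05% higher and 0.798% lower), but leaving out any 1 library gave only 1 to 4 higher and 2 to 3 lower. A330074K22Rik had 2.93, 2.74, 3.31 and 4.17 TPM in Pre, 2.19, 3.53 and 4.90 TPM as the lowest, median and highest of Mid, and 7.13, 11.1, 7.46 and 9.95 TPM in Post. Post was above every Pre and Mid library, with a change of 1.49 ± 0.25 (FDR = 0.00150) from Pre and of 1.25 ± 0.20 (FDR = 3.85e-05) from Mid. In experiment 2 it had 7.42, 10.5 and 8.0 TPM in Post and 3.46 to 4.53 TPM in Mid (1.03 ± 0.19, FDR = 0.00495, without a lane term). Post was not tested against Pre within experiment 2. AC138790.3 (−0.65 ± 0.12, FDR = 0.00293) and Frmd8os (−0.58 ± 0.10, FDR = 0.00234), which starts next to Neat1 on the opposite strand, were lower in Post than in Pre. Gm49477 was the third, with 18, 23.1, 20.6 and 21.2 TPM in Pre and 8.69, 16.7, 12.3 and 13 TPM in Post (−0.66 ± 0.14, FDR = 0.0138), and its call was lost without Post 1 (FDR = 0.0873). Gm39469 (0.41 ± 0.09, FDR = 0.0146) and 1810058I24Rik (0.30 ± 0.08, FDR = 0.0347) were higher. The call of Gm39469 was lost without Pre 1 (FDR = 0.0728). The calls of Proscos, 4732491K20Rik and Hectd2os were lost in 7 or all 8 of the refits without 1 library. With library size alone in place of TMM, A330074K22Rik was still called (FDR = 0.0138). AC138790.3 (FDR = 0.0817), Frmd8os (FDR = 0.214), Gm49477 (FDR = 0.168) and Gm39469 (FDR = 0.923) were not called under that scaling.

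By gene type, 14 of 35 antisense promoters were lower and 3 higher from Pre to Mid, 18 of 76 lincRNA promoters were lower and 6 higher, 5 of 36 processed_transcript promoters were lower and 5 higher, and 2 of 14 bidirectional promoters were lower and 3 higher, with none of the 6 TEC promoters called. Of all clusters 14.8% were lower and 15.4% higher. These counts were not tested against each other. Of the 12 members named as antisense to a coding gene, 7 were higher and 2 lower in Mid than in HiT, where 19.2% of all clusters were higher and 21.8% lower.

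An annotated protein-coding promoter stood within 1000 bp on the opposite strand of 48 members, 38 of them divergent and 10 overlapping, at a median distance of 254 bp. The member was the stronger of the pair in 12, and the median level was 11.8 TPM for members and 26.9 TPM for the partners. Of the pairs with both promoters called, 4 moved the same way and 2 opposite ways from Pre to Mid, 7 and 0 from Mid to Post, 12 and 0 for Mid against HiT, and 8 and 1 for Mid against Fed. Proscos and its partner Plpbp changed by 0.65 and 0.68 from Pre to Mid. In contrast 2310010J17Rik changed by 0.01 (FDR = 0.973) where its partner Picalm, an endocytosis gene, changed by 0.88 (FDR = 0.00157). Over all 48 pairs the signs were the same in 58.3, 68.8, 64.6 and 66.7% in these comparisons, and against HiT only the member was called in 8 pairs and only the partner in 12. The 2 promoters of a pair share a library, so that these counts describe the pairs and are no test.

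The rule left some members uncertain. RefSeq had an entry for 124 of the genes and called 114 of them long non-coding, 9 protein coding and 1 a pseudogene, and 12 members had a protein-coding 5′ end in the same window. Peaks lay within 5 bp of the annotated 5′ end for 66 and within 50 bp for 118 members, and 154 were members at a limit of 200 bp as well. Just inside the limit of 500 bp were Gm49437 (400 bp, 18.3 TPM), 2310014F06Rik (431 bp, 7.84 TPM) and Gm16576 (481 bp, 7.07 TPM), and just outside were Gm15564 (515 bp, 5.78 TPM) and a second cluster of H19 (553 bp, 21.6 TPM).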

How the data were processed

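The 38 libraries were made by nAnT-iCAGE. After trimming, the authors aligned the reads to mm10 using BWA and HISAT2, clustered the start sites with PromoterPipeline, and took the highest peak of a cluster as its start. The tag counts per cluster were deposited without normalization, and the deposited TPM values are the same counts per 1000000 tags of a library. Each cluster was assigned to the nearest GENCODE vM21 5′ end within 500 bp on its strand.

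Counts were fitted over all clusters with edgeR 4.0.16 in R 4.3.3 (quasi-likelihood F test, TMM, group as the only term), over 10776 clusters and 28 libraries in experiment 1 and over 10816 clusters and 10 libraries in experiment 2, with Benjamini-Hochberg FDRs over all clusters and a threshold of 0.05. Common dispersions were 0.0377 and 0.0391. Clusters without any tag were left out and no other filter on low counts was used. Levels are deposited TPM with SD. The SEs of log2 fold changes are not estimates given by edgeR. Each was calculated back from the test, as the absolute log2 fold change divided by the square root of the F statistic. Scripts were tested on simulated data. Refits used the likelihood ratio test, DESeq2 1.42.0, filterByExpr, other scalings, only the compared groups, all 38 libraries, a block for the replicate number, and every library left out in turn. Lane as a term was chosen after seeing the data.

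The promoters named are the 5 with the largest log2 fold change in each direction of a comparison among members called with a mean of at least 1 count per 1000000 tags, the 10 highest members, and the 4 highest members of each list. 2310010J17Rik and the starts printed for Snhg5, Snhg20 and 1110038B12Rik were chosen after their values were seen. The members and the lists of genes were chosen with earlier results of these data known. Tags of near-identical copies, such as AY036118 and the histone genes, can be assigned to the wrong copy.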

Additional observations from a re-analysis of the deposited data

Results flagged for a closer look

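Within groups of 4 to 8 mice, 18 of 343 groups over 49 promoters held a library whose gap to the nearest of the others was above the 95% critical value of Dixon's test, and chance alone gives about 1 in 20. Mid 6 was below the other Mid libraries for 3 promoters of the group that rose at Mid, with 24.2 TPM for 2410006H16Rik (nearest library 52.0), 28.2 TPM for Epb41l4aos (nearest 56.3) and 6.63 TPM for Gm17251 (nearest 13.6). In experiment 2, Mid 11 was far above the other Mid libraries for Gm42743 (110 TPM, nearest 29.1) and Meg3 (11.1 TPM, nearest 2.82), Mid 10 for 9530020I12Rik (13.4 TPM, nearest 8.79) and 2310065F04Rik (2.19 TPM, nearest 0.713), and Mid 13 for AY036118 (477 TPM, nearest 130).

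Libraries below their group were Post 3 for 1700020I14Rik (88.1 TPM, nearest 103), Post 1 for 9530020I12Rik (9.72 TPM, nearest 14.5) and Gm44386 (128 TPM, nearest 162), HiT 4 for 9530020I12Rik (5.64 TPM, nearest 9.51), Pre 3 for AC138790.3 (9.53 TPM, nearest 12.5) and Dep 1 for Gm7607 (2.89 TPM, nearest 3.73). Libraries above their group were Fed 3 for Epb41l4aos (32.1 TPM, nearest 27.4) and Gm36495 (8.01 TPM, nearest 3.98), Pre 2 for Gm4544 (4.49 TPM, nearest 2.96) and Mid 2 for Myhas (5.68 TPM, nearest 2.48).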

How the results depend on the processing

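For single promoters, the alternatives were tallied only for the largest changes called, up to 5 in each direction of a comparison. None of these turned its direction, but they were chosen for their size, so this says little of smaller changes. Changes near 0, such as that of 2410006H16Rik against HiT, were not among them. The median of the 9 well-known transcripts in Mid against Fed turned from −0.24 to 0.15 without Fed 1, and that of the 10 snoRNA hosts in Mid against HiT, −0.01, ranged from −0.05 to 0.11 with 1 library left out. Of the counts of promoters called, 188 stayed within 1.5 times the count reported and 33 did not, and with 1 library left out 176 did and 18 did not. Of the refits of the largest changes of single promoters, 537 kept the call and 23 lost it, and with 1 library left out 666 kept it and 52 lost it. Library size without TMM gave 6 higher in Mid against Pre, 19 higher and 15 lower in Post against Mid, 31 and 20 in Mid against HiT, 10 higher in Mid against Fed, 0 and 0 in Dep against Mid and 1 and 0 in Post against Pre, all in experiment 1. A fit of only the compared groups gave 21 higher in Mid against Fed, 0 and 0 in Dep against Mid, and 10 and 8 in Post against Pre. DESeq2 gave 3 higher in Dep against Mid and 6 lower in Post against Pre, and the likelihood ratio test 2 higher in Dep against Mid. A fit of all 38 libraries pooled the groups of both experiments, with experiment as a term. It gave 2 higher in Dep against Mid and 14 and 14 in Post against Pre. Its pooled counts were 25 higher and 47 lower in Mid against Pre and 45 and 27 in Post against Mid. These pooled counts are not counts of experiment 2, although the tally above also set them beside those of experiment 2. Dep against Mid had 0 higher without genes that RefSeq calls protein coding, and 0 lower without members that share a window with a protein-coding 5′ end. Lane as a term gave 5 and 5 in Post against Mid of experiment 2. The cause of these changes was not tested, apart from the members left out.

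Leaving out each library in turn gave 14 to 24 higher and 34 to 42 lower in Mid against Pre, 27 to 42 and 23 to 28 in Post against Mid, 35 to 58 and 28 to 35 in Mid against HiT, 22 to 37 and 38 to 50 in Mid against Fed, 0 to 3 and 0 to 2 in Dep against Mid, and 1 to 4 and 2 to 3 in Post against Pre. In experiment 2 it gave 4 to 15 and 2 to 19 in Mid against Pre, and 16 to 24 and 10 to 15 in Post against Mid. Between 131 and 142 members differed among the 6 groups.

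The replicate numbers did not pair the mice, since deviations of same-numbered libraries correlated at −0.437 to 0.488 (median −0.027) over 60 pairs of libraries. With the replicate number as a block, 21 members were higher in Mid against Fed, 5 higher and 2 lower in Dep against Mid, and 5 lower in Post against Pre. Experiment 2 could not be blocked, since its Mid libraries share no number with Pre or Post. Myhas, with 0 to 5.68 TPM in Mid, is at the limit of what this depth and number of mice resolve.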

Other observations

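Gas5 differed in level between the experiments, with 30.7 to 75.6 TPM in the 28 libraries of experiment 1 and 3.89 to 6.12 TPM in the 10 libraries of experiment 2, which were a separate sequencing run. Its listed peak was the same in both, because the clusters were shared. Airn was the other way, with 6.49 ± 0.453 TPM (SD, n = 4) in Pre of experiment 1 and 11.4 and 13.1 TPM in Pre of experiment 2. The study names a NextSeq and a HiSeq platform, and BWA and HISAT2 as aligners. Experiment, mice, sequencing run and any difference in platform or alignment cannot be told apart here.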
